A study of Mus musculus with 16 samples.

Results

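Transcripts of cultured mouse ovarian follicles were compared after 24 h with and without anti-Müllerian hormone (AMH). The comparison uses the 8 arrays that the labels place at 24 h, of 16 arrays in the series, and was described across the 12172 genes that passed a filter on signal. The 4 control arrays came from follicles cultured with 0 ng/ml AMH and the 4 AMH arrays from follicles cultured with 50 ng/ml recombinant AMH. The medium of both arms contained FSH (follicle-stimulating hormone) at 80 IU/L and LH (luteinizing hormone) at 10 IU/L, so that the controls were also gonadotropin-treated. The follicles ranged from preantral to small antral and were dissected from female C57BL/6Tac mice labelled as 8 weeks old, with 6 to 8 weeks in the description of the design. Each experiment drew on a pool of follicles from 8 mice that was shared out to both arms, so an array was a mixture of animals and AMH was set against control within 4 pairs, numbered 1 to 4. Each array held RNA from 6 to 9 follicles, amplified from 5 ng, and the small number of follicles and of arrays limits the precision. Whole follicles were used, so fewer cells of a type and less RNA per cell cannot be told apart in any value below.

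AMH belongs to the TGF-β superfamily and is secreted by the granulosa cells of growing follicles. It binds its own type II receptor, encoded by Amhr2, which pairs with type I receptors of the bone morphogenetic protein (BMP) branch and leads to phosphorylation of SMAD1, SMAD5 and SMAD9. In the ovary it is known for holding back the recruitment of primordial follicles and for lowering the response of growing follicles to FSH. The question here is which transcripts differ after a day of AMH in the presence of gonadotropins. Of the granulosa markers on a fixed list, 15 of 19 passed the signal filter, as did 30 of 36 oocyte markers, 18 of 20 stromal markers and 14 of 22 immune markers. The filter is a level of mean signal and not a detection call, and several defining immune markers were under it. The median deposited signal of the 24 h arrays lay between 27.9 and 40.2, and arrays of one group correlated across genes at 0.938 to 0.974. A level below is log2(signal + 1.46), and a change is the mean level with AMH minus the mean level in controls. The offset shrinks changes of genes near the floor, but changes also scatter most at low signal, so their size is uncertain there.

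Dpt and Spon1 were the transcripts called higher with AMH, narrowly under the threshold on the adjusted p, and no transcript was called lower. Dpt encodes dermatopontin, a small protein of the extracellular matrix that binds decorin and collagen fibrils. The deposited signal of Dpt was 103, 62.5, 51.3 and 92.5 in control replicates 1 to 4, and 224, 281, 237 and 336 in AMH replicates 1 to 4. The lowest AMH array was above the highest control array, and the pair differences on the log2 scale were 1.11, 2.14, 2.17 and 1.84. Spon1 encodes spondin 1, a secreted matrix protein known for guiding growing axons. Its signal was 133, 105, 161 and 219 in the controls and 357, 354, 344 and 430 with AMH. These groups did not overlap either, and the pair differences were 1.41, 1.74, 1.09 and 0.97. The AMH arrays lay closer together than the controls for both genes, with an SD of the level of 0.26 against 0.46 for Dpt and of 0.15 against 0.45 for Spon1.

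The test was limma's moderated test within pairs, adjusted by the Benjamini-Hochberg method over all 12172 genes, with a threshold of 0.05. The change of Dpt was 1.82 (SE 0.23, adjusted p = 0.048), a 3.53-fold difference, and that of Spon1 was 1.30 (SE 0.16, adjusted p = 0.048), a 2.47-fold difference. Both were higher in 4 of 4 pairs, and these 2 genes were 0.0164% of those tested. A second probe set of Spon1 gave a change of 1.14, also higher in 4 of 4 pairs, while Dpt was measured by 1 probe set. The call did not outlast several other settings: adjusted p was 0.0545 for Dpt and 0.051 for Spon1 without the pairing, and neither passed when replicate 2, 3 or 4 was left out, whereas without replicate 1 Dpt passed and Spon1 did not. No gene passed after quantile, cyclic loess or median scaling of the arrays, or with the 24 h arrays fitted alone (adjusted p = 0.363 for both genes). The 17 other stromal markers measured, taken without Dpt, had a mean level of 8.49 to 9.07 on the controls and 8.89 to 9.54 on the AMH arrays. That mean was higher with AMH by 0.45, 0.92, 0.47 and 0.00726 in pairs 1 to 4. A fit with it thus also takes out part of the difference between the arms. With that mean as a covariate, which was added after seeing the data, the change was 1.56 (SE 0.39, adjusted p = 1) for Dpt and 0.87 (SE 0.23, adjusted p = 1) for Spon1.

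**Figure D1:**
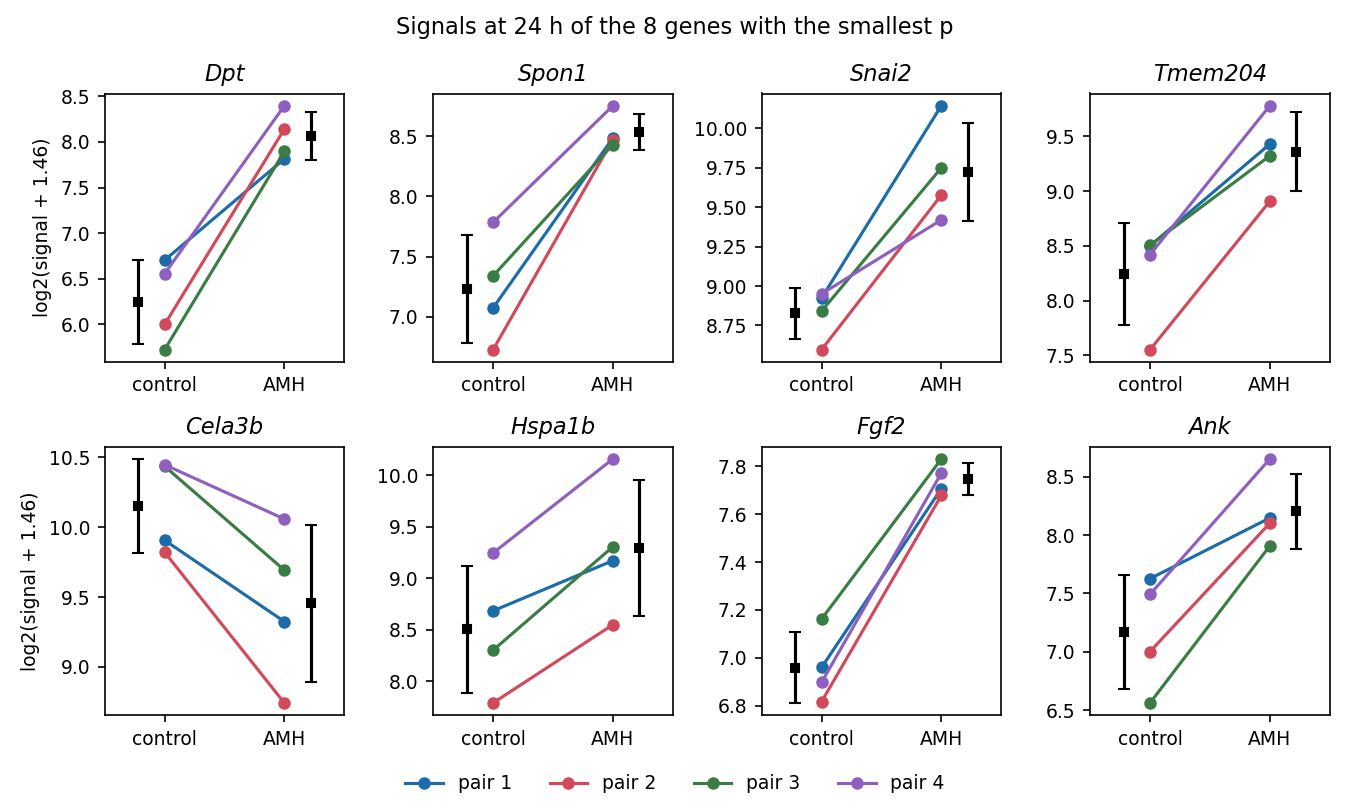
Level, as log2(signal + 1.46), of the 8 genes with the smallest p at 24 h on each control and AMH array; lines join the arrays of a pair, and squares with bars give the mean and SD of each group of 4 arrays. Dpt, Spon1 and Fgf2 were higher with AMH in 4 of 4 pairs with no overlap between groups, while Cela3b was lower in 4 of 4 pairs and its groups overlapped.

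The bases before the annotated start of Dpt are shown because it had the largest change of the genes called, beside those of Id3, a textbook target of BMP receptors that serves as a comparison. Sequences are from RefSeq on the build GRCm38.p6, 5′ to 3′ on the strand of the gene, and 2 of the 3 genes looked up (Dpt, Spon1, Id3) were matched. The Dpt sequence is chr1:164796413-164796662 (+ strand) and the Id3 sequence is chr4:136143572-136143821 (+ strand). Capitals mark matches to the short SMAD-binding motif CAGAC, or GTCTG when it lies on the other strand.
Dpt: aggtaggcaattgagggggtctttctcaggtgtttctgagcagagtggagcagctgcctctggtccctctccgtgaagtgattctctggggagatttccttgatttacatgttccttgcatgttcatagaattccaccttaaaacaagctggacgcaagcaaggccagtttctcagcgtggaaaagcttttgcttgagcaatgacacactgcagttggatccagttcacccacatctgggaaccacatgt
Id3: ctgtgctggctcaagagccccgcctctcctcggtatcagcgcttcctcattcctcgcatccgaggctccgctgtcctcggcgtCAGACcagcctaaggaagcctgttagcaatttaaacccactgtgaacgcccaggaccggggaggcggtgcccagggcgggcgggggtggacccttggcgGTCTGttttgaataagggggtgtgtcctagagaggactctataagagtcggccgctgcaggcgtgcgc
The Id3 sequence held 2 matches to CAGAC and the Dpt sequence held 0. Neither held GGCGCC, a palindrome of the BMP branch of SMADs that was searched as well. Among 32851 promoters of the same 250 bases, 42.2% held CAGAC on either strand and 9.59% held GGCGCC, so a match describes the letters only.

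Across all genes the shift with AMH was small, on arrays deposited with a common trimmed mean. Arrays brought to a common mean cannot show a shift shared by all genes. Whether AMH changed the total amount of RNA was therefore not tested. The median change was 0.006 and the median SE was 0.17, with 51.6% of genes above 0 and 48.4% below. At an unadjusted p under 0.05 stood 496 genes (4.07%), against 609 expected by chance, with 355 (2.92%) higher and 141 (1.16%) lower with AMH. The higher share of these genes was thus 71.6%, but 53.7% with no signal filter and 55.0% after centring each array on its median. Quantile normalization gave 74.0% and cyclic loess 75.2%, so the split moved with the filter and with 1 of the 3 rescalings. It moved with the arrays too, at 59.5%, 59.5%, 68.9% and 59.9% without replicates 1, 2, 3 and 4 in turn. With array weights the share was 60.4%, and with the stromal covariate 52.8%. Higher in 4 of 4 pairs were 724 genes (5.95%), and lower in 4 of 4 pairs were 419 (3.44%). The groups did not overlap, with AMH higher, for 178 genes (1.46%), and with AMH lower for 72 (0.592%). Counts within gene lists below are to be read against these shares.

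**Figure D2:**
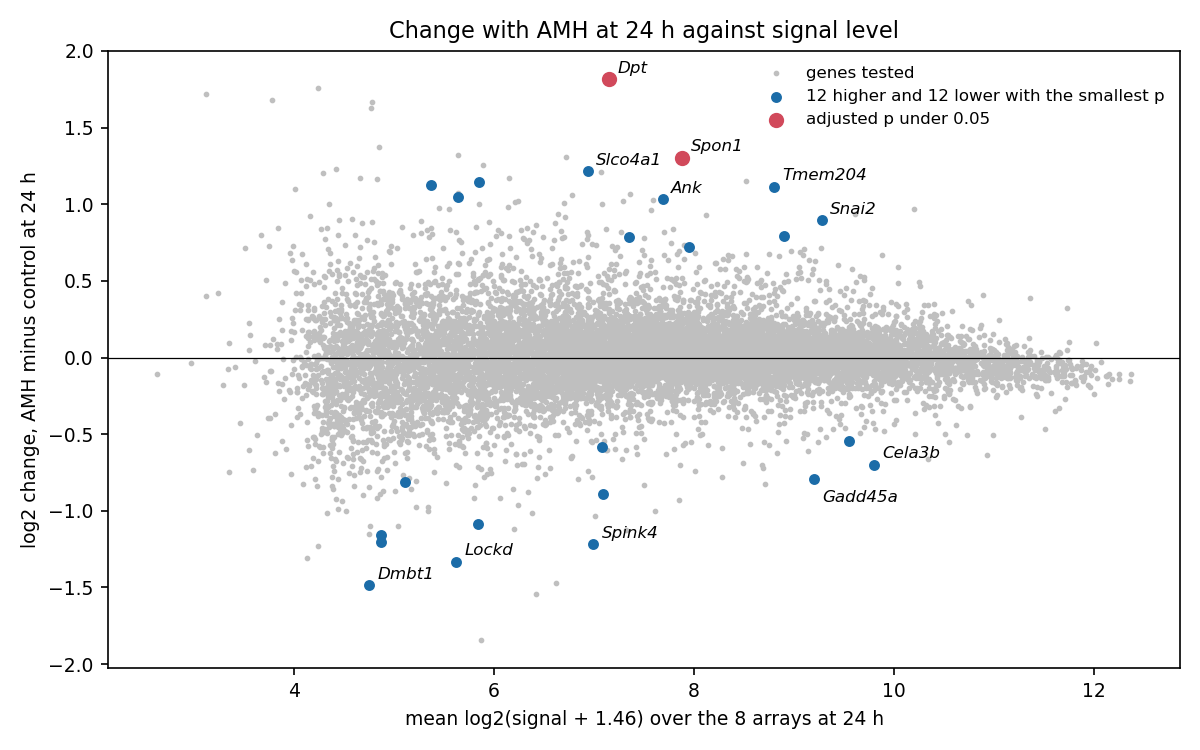
Change at 24 h against the mean level over the 8 arrays for the 12172 genes tested; red points passed an adjusted p of 0.05 and blue points are the other genes among the 12 higher and 12 lower with the smallest p. Dpt at 1.82 and Spon1 at 1.30 stand at mid signal, and the spread of changes widens towards low signal.

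Among genes of one direction in all 4 pairs, the 12 higher genes with the smallest p held 10 genes beside Dpt and Spon1. None of these other 10 passed the threshold. Snai2, a transcription factor of mesenchymal cells, had levels of 8.92, 8.60, 8.84 and 8.95 in controls and 10.14, 9.58, 9.75 and 9.42 with AMH. Its groups did not overlap, and its change was 0.90 (SE 0.13, adjusted p = 0.134 by limma). Fgf2, a growth factor that granulosa and theca cells respond to, had levels of 6.96, 6.82, 7.16 and 6.90 in controls and 7.71, 7.68, 7.83 and 7.77 with AMH. The AMH arrays of Fgf2 lay within an SD of 0.07, and its change was 0.79 (SE 0.14, adjusted p = 0.207 by limma). Fgfr4, which encodes an FGF receptor, had levels of 4.57 to 4.99 in controls and 5.35 to 6.55 with AMH, with no overlap and a change of 1.12.

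Tmem204, which encodes a membrane protein of cell junctions, had a change of 1.12. Its levels were 8.50, 7.55, 8.51 and 8.42 in controls and 9.43, 8.91, 9.32 and 9.78 with AMH, with control replicate 2 the lowest. Ank, a transporter linked to pyrophosphate export and mineral control, had levels of 6.56 to 7.63 in controls and 7.91 to 8.65 with AMH. Gem, a small GTPase that restrains calcium channels, had levels of 7.30 to 7.82 and 8.04 to 8.66. The groups of these 3 genes did not overlap, as was the case for 8 of the 12 genes, a share the choice of genes largely sets.

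The groups overlapped for the other 4 of the 12. Slco4a1, an organic anion transporter, had levels of 6.44, 5.93, 6.08 and 6.88 in controls and 8.03, 6.10, 7.70 and 8.36 with AMH. Pair 2 thus differed by little, while the other pairs differed by more than 1. P2ry14, a receptor for UDP-sugars, had a change of 1.14, and Tlr4, the receptor for bacterial lipopolysaccharide, had a change of 1.05. Hspa1b, an inducible heat-shock protein, had a change of 0.79 with levels of 7.79 to 9.24 and 8.55 to 10.16. Hspa1b shares most of its sequence with Hspa1a, whose probe set had a change of -0.21, so the value of either gene is uncertain. Over the 12 higher genes the adjusted p by limma ran from 0.048 to 0.571. Second probe sets of Snai2, Tmem204, Hspa1b, Slco4a1, Tlr4 and Fgfr4 gave the same direction.

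The 12 lower genes with the smallest p included secreted, signalling and stress genes, and none passed. Cela3b, a serine protease best known from the pancreas, had levels of 9.91, 9.82, 10.44 and 10.45 in controls and 9.32, 8.74, 9.69 and 10.06 with AMH. Each pair was lower with AMH although the groups overlapped, and the change was -0.70 (SE 0.12, adjusted p = 0.207 by limma). Other probe sets of Cela3b gave -0.81, -0.75 and -0.82, each with 1 pair higher with AMH. Spink4, a Kazal-type inhibitor of serine proteases, had levels of 7.04, 7.78, 7.64 and 7.95 in controls and 6.34, 6.30, 6.45 and 6.44 with AMH. Its groups did not overlap and its change was -1.22 (SE 0.26, adjusted p = 0.571 by limma). Gadd45a, a stress gene induced by DNA damage, had levels of 9.33, 10.16, 9.81 and 9.07 in controls and 8.05, 9.62, 8.47 and 9.05 with AMH. Pair 4 of Gadd45a hardly differed, and the change was -0.79 (SE 0.22).

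Gpr20, an orphan receptor coupled to G proteins, had levels of 6.23 to 6.58 in controls and 4.89 to 5.61 with AMH. Mapk13, a p38 kinase, had a change of -0.89 with levels of 7.06 to 8.29 and 6.13 to 7.20. Nrbp2, a pseudokinase, had a change of -0.54, and 1110065P20Rik had a change of -0.59 with levels of 7.32 to 7.47 and 6.65 to 6.97. The groups did not overlap for 5 of the 12 lower genes: Spink4, Gpr20, 1110065P20Rik, Cfap52 and Zfp982. The choice of genes largely sets this share too, beside 0.592% of all genes without overlap and AMH lower. Cfap52, a protein of cilia, had a change of -1.16, and Syn3, a synapsin, had a change of -0.81. For the zinc finger gene Zfp982, at -1.21, a second probe set gave 0.09, so its direction depended on the probe set. Over the 12 lower genes the adjusted p by limma ran from 0.207 to 0.813.

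The largest changes of one direction in all 4 pairs lay mostly at low signal, and Dpt was the one among them that passed. Above 0 these were Gucy2g, a receptor guanylyl cyclase, at 1.76, Npnt, a basement membrane ligand of integrins, at 1.72, Cdkn1c, an inhibitor of cyclin-dependent kinases, at 1.67, and Nr2f1, an orphan nuclear receptor, at 1.37. Without replicate 1 the change of Cdkn1c was 0.78. Cyp17a1, through which theca cells make androgens, differed by 1.32, with levels of 4.42, 4.97, 5.59 and 4.96 in controls and 6.14, 5.56, 7.31 and 6.20 with AMH. Its groups overlapped by a narrow margin, since control replicate 3 lay above AMH replicate 2. Npnt had levels of 1.12 to 3.02 in controls, under the filter's level of 4.18, and a second probe set of Npnt gave -0.16. Below 0 were Hoxc10 at -1.84, Tarbp2, a partner of Dicer, at -1.54, Dmbt1, a secreted scavenger-receptor protein, at -1.49, Gm7969 at -1.47, Lockd, a long noncoding RNA near Cdkn1b, at -1.33 and the helicase Pif1 at -1.31. Hoxc10 had levels of 7.97, 8.29, 7.58 and 3.33 in controls and 6.02, 7.78, 2.71 and 3.30 with AMH, so it was near the floor on arrays of both groups. Without replicate 3 Hoxc10 was -0.83 and Tarbp2 -0.88, and without replicate 1 Gm7969 was -0.52. A second probe set of Tarbp2 gave -0.01.

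The receptors and SMADs of the AMH pathway showed no call. Of 11 measured genes on that list of 12, 9 had changes above 0, with a median of 0.08, and 0 were at an unadjusted p under 0.05. Amhr2 had levels of 10.40, 10.89, 10.38 and 10.46 in controls and 10.84, 10.47, 10.39 and 10.46 with AMH. Its change was 0.01 (SE 0.16), with control replicate 2 the highest array. Acvr1, a type I receptor of the BMP branch, had a change of 0.24 and was higher in 4 of 4 pairs, as was Smad4, the common partner SMAD, at 0.12. Bmpr1b, another type I receptor, had a change of 0.24 and Smad1 of 0.16. The Amh transcript was at low signal, with levels of 3.37 to 4.25 in controls and 2.40 to 4.74 with AMH, around and below the filter's level. Its change of -0.60 came with an SE of 0.52, and it was lower in 3 of 4 pairs.

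Among the targets and feedback inhibitors of SMAD1, SMAD5 and SMAD9, 10 of 14 measured genes had changes above 0, with a median of 0.17, and none passed. Smad6, an inhibitory SMAD, had levels of 6.01, 5.81, 6.02 and 5.48 in controls and 6.16, 6.20, 6.56 and 6.73 with AMH. Its groups did not overlap, but its change of 0.58 (SE 0.24) had an adjusted p of 1 by limma. Smad7, the other inhibitory SMAD, had a change of 0.93, with control replicate 2 at 5.73 and the other controls at 8.08 to 8.42, and a change of 0.44 without replicate 2. A second probe set of Smad7 gave 0.72 (SE 0.17), higher in 4 of 4 pairs. Of the inhibitors of DNA binding, Id4 had a change of 0.97 (SE 0.33), Id2 and Id3 of 0.49 and Id1 of 0.13. Id3, whose promoter is printed above, had levels of 9.25, 10.03, 10.00 and 9.90 in controls and 10.67, 10.19, 10.13 and 10.14 with AMH. The pairs 2, 3 and 4 of Id3 differed by under 0.3, and control replicate 1 was the lowest and AMH replicate 1 the highest array. Atoh8 had a change of 0.48, and Bmper, a secreted BMP regulator, of -0.47.

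Of the inhibin and activin subunits and follistatins, 4 of 7 had changes above 0. Inhba, which encodes the subunit of activin A, had levels of 9.35, 9.82, 10.23 and 9.45 in controls and 11.06, 10.71, 10.99 and 9.97 with AMH. It was higher in 4 of 4 pairs with groups that overlapped, and its change was 0.97 (SE 0.26, adjusted p = 0.813 by limma). Inha had a change of -0.10 and Inhbb of 0.34, with pair 1 of Inhbb going from 9.02 to 11.84 and pair 4 from 10.88 to 9.82. Fst, which encodes the activin-binding protein follistatin, had a change of 0.59, and Fstl3 of -0.56. Pair 1 carried both, since without replicate 1 they were -0.0296 and -0.0616. The 12 measured BMP ligands and antagonists had a median of 0.17, which was 0.0163 without replicate 1 and -0.155 with the stromal covariate. The 1 gene among them at an unadjusted p under 0.05 was the antagonist Nbl1, at 0.47. Within the 13 measured genes of TGF-β signalling the median was -0.01. The type II receptor Tgfbr2 had a change of 0.51 and was higher in 4 of 4 pairs, the type I receptor Tgfbr1 had a change of -0.42, and Ltbp2, which binds latent complexes, of 0.54.

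Of the gonadotropin and steroid receptors, 6 of 7 measured had changes above 0, with a median of 0.21 and 0 at an unadjusted p under 0.05. Fshr, the FSH receptor, had levels of 5.98, 6.33, 6.73 and 5.55 in controls and 7.13, 6.24, 8.12 and 5.71 with AMH. Pairs 1 and 3 differed by over 1 and pairs 2 and 4 by under 0.2, and the change was 0.65 (SE 0.33). Esr2, the oestrogen receptor of granulosa cells, had a change of 0.21. In steroidogenesis 4 of 11 measured genes were above 0, with a median of -0.18 and list means by pair of -0.47, -0.15, 0.17 and 0.31. Cyp11a1, the first enzyme of steroid synthesis, had levels of 11.61, 12.19, 11.01 and 10.19 in controls and 9.11, 11.63, 10.72 and 11.00 with AMH, so pair 1 differed by -2.50 and pair 4 by 0.80. Star, which brings cholesterol into mitochondria, had a change of -0.44, with AMH replicate 1 at 9.17 and the other AMH arrays at 10.72 to 10.93. Fdx1, the electron donor of the mitochondrial enzymes, had a change of -0.35 and Hsd3b1 of -0.18. The aromatase gene and the LH receptor gene were not analysed here, since no probe set carried their symbol alone.

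All 21 measured genes of cholesterol biosynthesis had changes below 0, with a median of -0.24, beside 48.4% of all genes. Of these 3 stood at an unadjusted p under 0.05: Fdps at -0.50, Cyp51 at -0.33 and Hmgcs1 at -0.33. Hmgcs1, which makes the precursor of mevalonate, had levels of 12.12, 12.22, 11.62 and 11.30 in controls and 11.51, 11.69, 11.41 and 11.34 with AMH. Its pairs 1 to 3 were lower with AMH and pair 4 was not. Fdps, an enzyme of isoprenoid synthesis, had levels of 10.15 to 10.76 and 9.80 to 10.18, and all 4 pairs were lower. Srebf2, the transcription factor of the pathway, had a change of -0.06, and its second probe set gave -0.29, lower in all 4 pairs. No gene of the list passed, and the list mean by pair was -0.54, -0.36, -0.14 and 0.08. With the stromal mean (without Dpt) as a covariate the median was 0.0798.

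The insulin-like growth factor (IGF) system leaned the other way, with 12 of 13 measured genes above 0 and a median of 0.32. Igfbp7, which encodes a secreted binding protein, had levels of 11.25, 10.99, 11.42 and 11.00 in controls and 11.64, 11.44, 11.69 and 11.45 with AMH. Its groups did not overlap, with a change of 0.39 (SE 0.10, adjusted p = 0.813 by limma). Igfbp5 had a change of 0.32, Irs1, an adaptor of the receptor, of 0.47 and Igfbp3 of 0.50, and none of them passed. The granulosa identity list had a median of 0.01, with 8 of 15 above 0 and list means by pair of 0.59, -0.18, 0.0048 and -0.27. Within it Kctd14 had a change of -0.27 and was lower in 4 of 4 pairs, and Runx1 had a change of -0.50.

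Genes of the stroma and of the theca matrix lay mostly above 0. All 18 measured had changes above 0, with a median of 0.49, beside 51.6% of all genes, and 12 of 18 stood at an unadjusted p under 0.05 beside 2.92% of all genes in that direction. Of these genes 5 were higher in 4 of 4 pairs (5.95% of all genes), and the groups did not overlap for 2 (1.46% of all genes with AMH higher). Dpt alone of them was called. The median of this list stayed above 0, and that of cholesterol biosynthesis below 0, with quantile, cyclic loess and median scaling of the arrays. Col6a2, a chain of collagen VI, had levels of 9.22, 9.26, 9.67 and 9.42 in controls and 9.53, 10.19, 10.32 and 9.66 with AMH. It was higher in 4 of 4 pairs, at 0.53 (SE 0.13, adjusted p = 0.652 by limma). Dcn, the collagen-binding proteoglycan decorin, had levels of 9.35, 9.46, 9.64 and 9.74 in controls and 10.47, 10.41, 10.54 and 9.45 with AMH. Pairs 1 to 3 of Dcn differed by about 1 and pair 4 went the other way. Pdgfra, a receptor of stromal cells, had a change of 0.55 and Col1a1 of 0.18. A second probe set of Col1a1 gave 0.51 (SE 0.17), higher in 4 of 4 pairs. In pair 4 the median over the 18 genes was -0.0698. The list mean differed by 0.49, 0.99 and 0.56 in pairs 1 to 3 and by 0.11 in pair 4. In pair 4 the mean of the 17 markers without Dpt differed by 0.00726, beside 1.84 for Dpt and 0.97 for Spon1.

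Matricellular and basement membrane genes other than these had 31 of 37 above 0, with a median of 0.27. Of them 13 were higher in 4 of 4 pairs, beside 5.95% of all genes. Spon1 was the one called. Emilin1, a glycoprotein of elastic fibres, had a change of 0.77 (SE 0.20), and Loxl1, which cross-links elastin, of 0.68. Timp2, an inhibitor of metalloproteinases, had levels of 9.01, 9.46, 9.29 and 9.22 in controls and 9.70, 9.65, 9.66 and 9.70 with AMH, with no overlap and a change of 0.43. The mesenchymal transcription factors had 11 of 11 above 0, with a median of 0.36. Beside Snai2, the groups did not overlap for Zeb1 at 0.51, Meox1 at 1.20 and Twist1 at 0.61. Other probe sets of Zeb1 gave 0.48 and -0.18, the latter higher in 2 of 4 pairs. Among all genes 1.46% had groups without overlap and AMH higher. Of the genes just named, Meox1 had control levels of 2.74 to 4.50 around the filter. Twist1 had levels of 5.83 to 6.67 in controls and 6.71 to 7.02 with AMH.

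Among FGF, PDGF and VEGF ligands and receptors, 17 of 24 were above 0, with a median of 0.21. After Fgf2, Fgfr2 had a change of 0.58 and Nrp2, a co-receptor of VEGF and semaphorins, of 0.62, while the ligand Pdgfa had a change of -0.38 and was lower in 4 of 4 pairs. The 9 smooth muscle and pericyte genes had a median of 0.26 with 0 at an unadjusted p under 0.05. The theca androgen and hedgehog genes had a median of 0.12, with list means of 0.88, 0.31, 0.56 and -0.78 in pairs 1 to 4. The endothelial markers had 16 of 17 above 0, with a median of 0.30. Pairs 2 and 3 carried this, with list means of 0.69 and 0.42, against -0.03 and -0.06 in pairs 1 and 4. Emcn, a sialomucin of capillary endothelium, had levels of 7.02, 7.94, 7.82 and 7.68 in controls and 7.42, 8.67, 8.48 and 7.97 with AMH, with a change of 0.52 (SE 0.12, adjusted p = 0.652 by limma). With the same stromal covariate the endothelial median was -0.11.

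The immune markers had 14 of 14 above 0, and their median of 0.71 was the highest of the 35 lists. Ctss, a cysteine protease of macrophages, had levels of 6.16, 6.05, 5.61 and 6.45 in controls and 6.44, 8.40, 6.95 and 7.72 with AMH. Laptm5, a lysosomal protein of blood cells, had a change of 1.06 and Cd74, the invariant chain of class II molecules, of 0.69. None of the 14 passed. The list mean was 5.84, 5.91, 5.35 and 5.05 on the controls and 5.26, 6.84, 6.27 and 6.58 with AMH, so pair 1 was lower with AMH and the other 3 pairs were higher. Defining markers of leukocytes and macrophages, among them Ptprc, Adgre1, Aif1 and Cx3cr1, were under the signal filter. With the immune mean as a covariate the change of Dpt was 1.50 (adjusted p = 0.0936 by limma) and that of Spon1 was 1.32 (adjusted p = 0.0791 by limma).

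Cytokines, chemokines and their receptors had 13 of 15 above 0, with a median of 0.27 and pair means of 0.28 to 0.47. The median was 0.119 with no signal filter, 0.0817 with the stromal covariate and 0.459 without pairs 1 and 4. Cxcl12, a chemokine of stromal cells, had levels of 7.24, 6.97, 7.30 and 6.82 in controls and 8.02, 8.65, 8.41 and 7.34 with AMH. The groups of Cxcl12 did not overlap, and its change was 1.03 (SE 0.23, adjusted p = 0.571 by limma). Ccl2, which attracts monocytes, had a change of 1.01, Cxcl1, which attracts neutrophils, of 1.02 and the interleukin 1 receptor Il1r1 of 0.27, and none of the 15 passed. Other probe sets of Cxcl1 gave 0.20 and 0.79, and each of its probe sets was higher in 3 of 4 pairs. The surface epithelium markers had a median of -0.04, with Krt18 at -0.30 and Upk1b at 0.44.

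**Figure D3:**
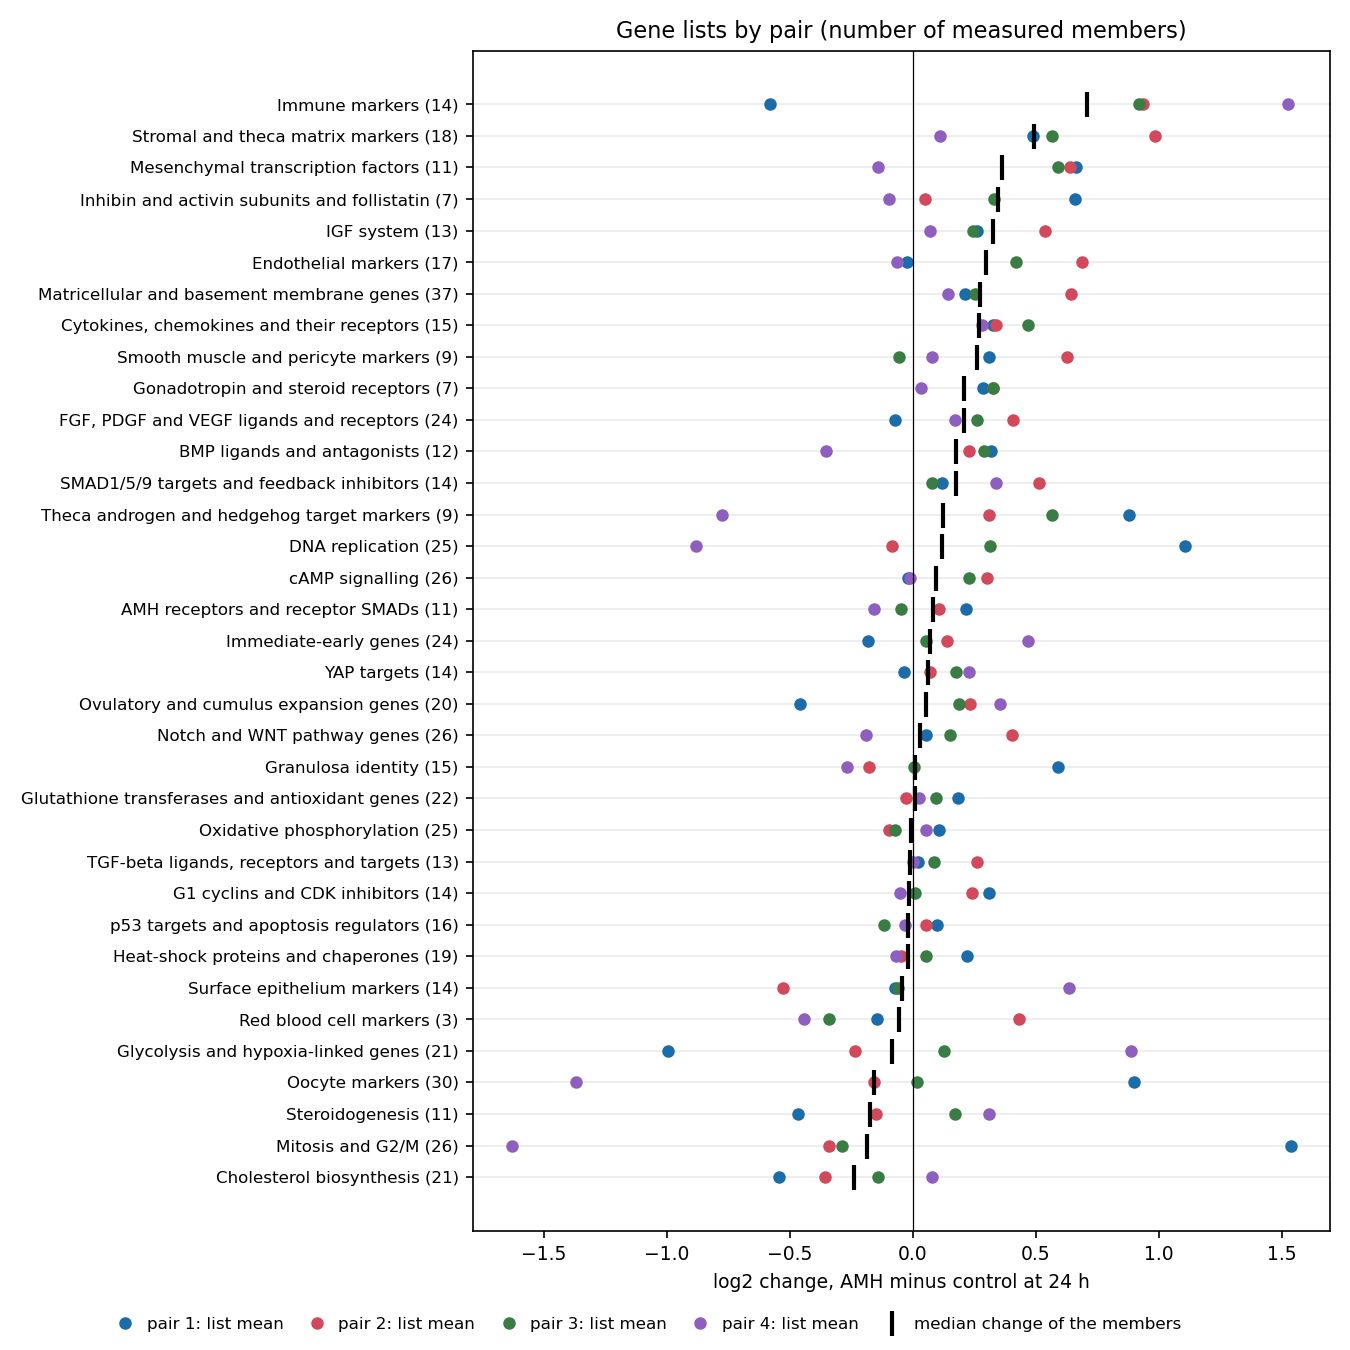
Mean change of each of 35 gene lists in each of the 4 pairs (coloured points) with the median change over the members (black bar); the number of measured members is in brackets. Immune, stromal and mesenchymal lists lie highest by their median and cholesterol biosynthesis lowest, and the points of pairs 1 and 4 lie far apart for mitosis, oocyte and glycolysis lists.

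Pairs 1 and 4 differed most between their arms, and in opposite directions. Over 2-fold in pair 1 were 746 genes higher and 707 lower with AMH, and in pair 4 there were 319 higher and 800 lower. Pair 2 had 339 and 87, and pair 3 had 205 and 94. Of the 517 genes past 2-fold in both pair 1 and pair 4, 475 went opposite ways. Of the 89 past 2-fold in both pair 2 and pair 3, 6 went opposite ways and 69 were higher in both. The other combinations lay between these, with 60 of 104 opposite for pairs 1 and 2 and 46 of 117 for pairs 1 and 3. For pairs 2 and 4 it was 42 of 108, and for pairs 3 and 4 it was 50 of 95.

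The lists of oocyte, proliferation and glycolysis genes followed the split between pairs 1 and 4. The oocyte markers had a mean level of 7.22, 6.85, 6.96 and 8.30 on the controls and 8.11, 6.69, 6.97 and 6.93 with AMH, with control replicate 4 and AMH replicate 1 the highest. Their median change was -0.16, with 3 of 30 above 0, and 0 of 30 had one direction in all 4 pairs. Genes of mitosis had a mean level of 6.29, 7.05, 7.39 and 8.06 on the controls and 7.83, 6.71, 7.11 and 6.43 with AMH. The pair means of the mitosis list were 1.54, -0.34, -0.29 and -1.63, and 0 of 26 genes were at an unadjusted p under 0.05. Glycolysis genes moved against them, at -0.998, -0.24, 0.13 and 0.89. DNA replication genes went from 1.11 in pair 1 to -0.88 in pair 4, with a median change of 0.12. The medians of these lists turned when 1 pair was left out: oocyte 0.24 and mitosis 0.30 without replicate 4, and glycolysis 0.24 and replication -0.19 without replicate 1. Their part in the results of single genes was not tested beyond the oocyte mean as a covariate, with which Dpt and Spon1 stayed under the threshold (adjusted p = 0.0233 for both by limma).

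**Figure D4:**
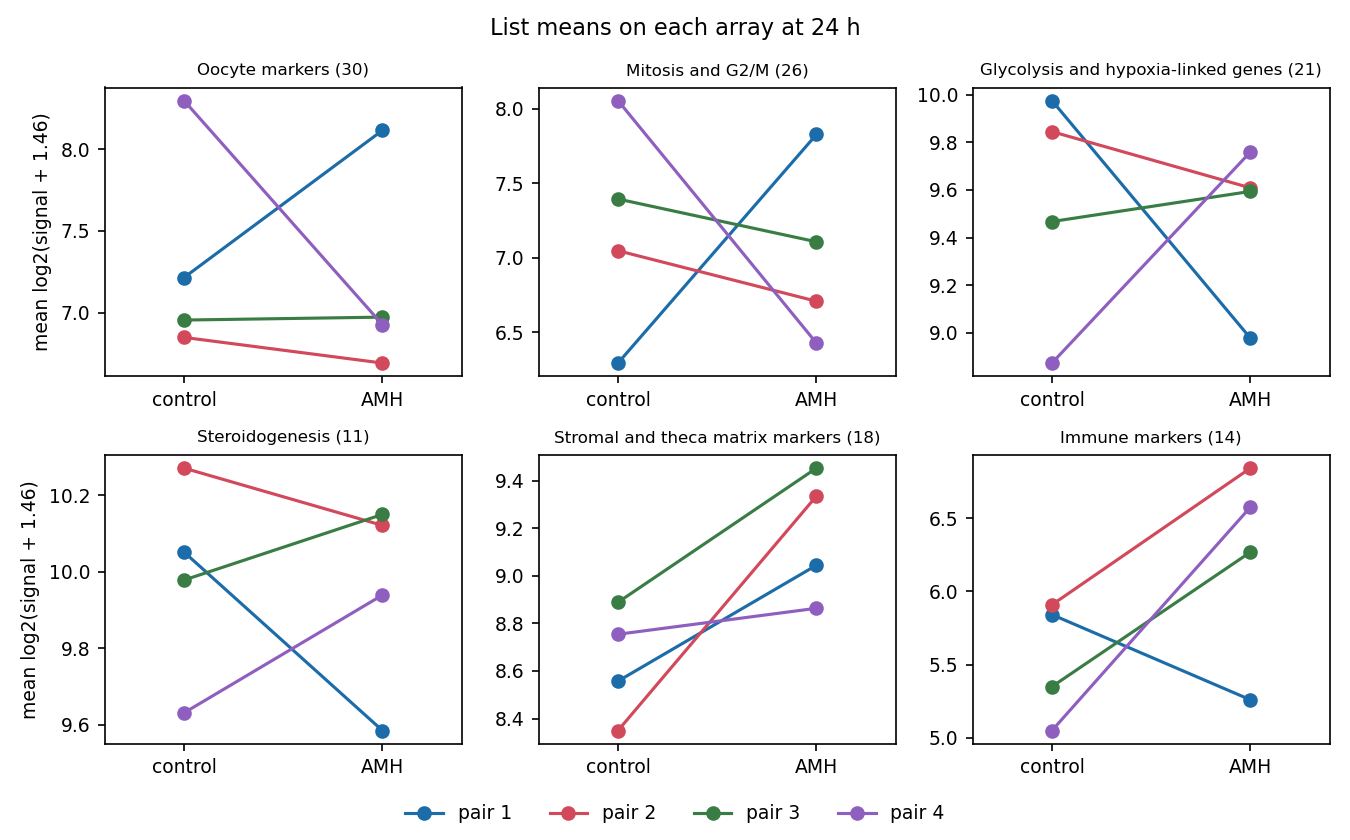
Mean level of 6 gene lists on each control and AMH array at 24 h, with lines joining the arrays of a pair; brackets give the number of measured genes. Oocyte and mitosis lists go up in pair 1 and down in pair 4 and glycolysis goes the other way, while the stromal list goes up in pairs 1 to 3 and the immune list in pairs 2 to 4. In pair 4 the stromal list differs by 0.11 with Dpt and by 0.00726 without it.

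The lists of ovulatory, immediate-early and cAMP signalling genes had medians near that of all genes. Of 20 measured ovulatory and cumulus expansion genes 13 were above 0, with a median of 0.05. Spry2, a feedback inhibitor of receptor tyrosine kinases, had a change of 0.38, with higher levels in 4 of 4 pairs. Ptgs2, the inducible prostaglandin synthase, had a change of 0.71, with AMH replicate 4 at 7.09 and the other AMH arrays at 5.29 to 5.71. This probe set was higher in 2 of 4 pairs, whereas a second probe set of Ptgs2 gave 0.99 (SE 0.28), higher in 4 of 4 pairs. Has2, which makes the hyaluronan of the cumulus matrix, had a change of 0.68, and of 0.19 without replicate 1. Of 24 immediate-early genes 13 were above 0. Dusp1 had a change of 0.69, Fos of 0.78 and Egr1 of 0.55, while Myc had levels of 9.26, 9.58, 8.83 and 8.65 in controls and 8.36, 8.66, 8.73 and 8.63 with AMH. Myc was lower in 4 of 4 pairs, mainly in pairs 1 and 2, at -0.49. Of 26 genes of cAMP signalling 18 were above 0, among them the phosphodiesterase Pde7b at 0.75, the cyclase Adcy7 at 0.44 and the kinase subunit Prkar2b at 0.49.

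The genes named at 24 h were set beside their change at 12 h, from 8 further arrays in 4 pairs with the same agents. Dpt had a change of -0.11 at 12 h and Spon1 of 0.15. The difference between the effects was 1.93 (SE 0.32, adjusted p = 0.21 by limma's interaction test) for Dpt and 1.15 (SE 0.23, adjusted p = 0.319) for Spon1, so a difference between the times was not shown for either. The 12 higher and 12 lower genes were chosen by their values at 24 h. That choice by itself favours smaller or opposite changes at 12 h and a larger difference between the times. Of the 12 higher genes, 4 were above 0 at 12 h, with changes from -0.83 for Slco4a1 to 0.25 for Snai2. Of the 12 lower genes, 9 were above 0 at 12 h, up to 1.14 for Gadd45a. The smallest adjusted p of the interaction among the named 24 was 0.133, for Cela3b, at -0.70 after 24 h and 0.49 after 12 h. Limma called 0 of 12172 genes for this interaction, with 687 (5.64%) at an unadjusted p under 0.05. The stromal marker Dcn had a change of 0.77 at 12 h and 0.67 at 24 h, and Col6a2 of 0.49 and 0.53. The 18 stromal genes had a median of 0.28 at 12 h with 15 above 0, whereas the endothelial genes had a median of -0.40 at 12 h with 1 of 17 above 0.

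**Figure D5:**
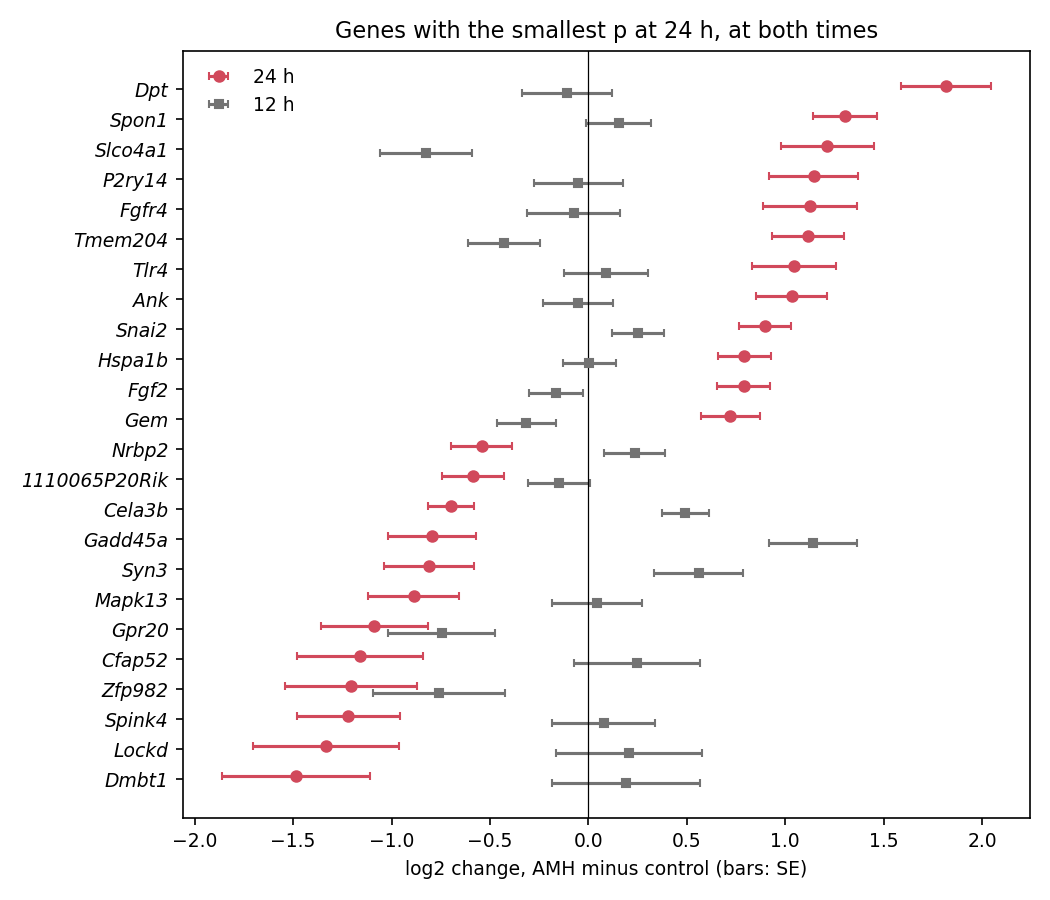
Change with AMH at 24 h (red circles) and at 12 h (grey squares) with SE for the 12 higher and 12 lower genes with the smallest p at 24 h. Genes are ordered by the 24 h change, and most of the 12 h changes lie near 0, with Slco4a1 at -0.83 and Gadd45a at 1.14 the farthest from it. The genes were chosen by their 24 h values, which by itself favours smaller changes at 12 h.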

How the data were processed

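The authors deposited a linear intensity for each probe set. The submitters' processing notes name MAS5, with no version given in the sources used here. Each array had a trimmed mean of 150.0 (2% cut at each end), and no scaling was added. Levels were log2(signal + 1.46), with the 10th percentile of the deposited signals as offset. Among 45101 probe sets, 64 were controls and 34945 carried 1 gene symbol in the annotation table, 932 several and 9160 none. Of those with 1 symbol, 34754 were matched to RefSeq by gene ID. A probe set was kept if its mean reached the 40th percentile (log2 of 4.18, signal of 16.6), and the one with the highest mean stood for a gene. Detection calls were not analysed here.

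All 16 arrays entered 1 linear model in limma 3.58.1 (R 4.3.3), with 8 pairs as a block, variances moderated along the mean level, and p-values adjusted by Benjamini-Hochberg at 0.05. The pairing comes from the labels, which state that both arms came from one pool. At 24 h the deviations from group means of the 2 arrays of a pair had correlations of -0.437, 0.327, 0.200 and -0.287. Across numbers they ran from -0.512 to 0.538, the highest for control 4 with AMH 1. The labels do not say whether pools differed between replicates, so p-values measure the spread between these samples. The fit was tested on simulated data. Figures used matplotlib 3.10.9 in Python 3.11.15.

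The named genes were those called, the 12 per direction with the smallest p and the 6 with the largest change among genes of one direction in all 4 pairs, and up to 4 per list with the smallest p. The measured members of the AMH receptor, SMAD target, inhibin, steroidogenesis and receptor lists could be named too. The comparison, the genes and the 35 lists were chosen with earlier results of these data known. Alternatives were other offsets, filters, scalings, probe set rules, moderation, blocks, covariates and arrays left out.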

Additional observations from a re-analysis of the deposited data

Results flagged for a closer look

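Within each group of 4 arrays at 24 h, the highest or lowest array was set against the other 3 for the genes named and the list means, and a value was marked when its gap exceeded Dixon's 95% critical value. Chance marks about 1 in 20 groups, and 14 of 298 were marked (4.70%), so single marks carry little weight. All values are levels, as log2(signal + 1.46).

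Among the genes with the smallest p, AMH replicate 4 of Spon1 stood above its group at 8.75, and control replicate 2 of Tmem204 stood below at 7.55. Of the pathway genes, Amhr2 was high in control replicate 2 at 10.89, and Smad7 was low on the same array at 5.73, as was the mean of the TGF-β list at 8.26. Id3 was low in control replicate 1 at 9.25 and high in AMH replicate 1 at 10.67, the 2 arrays of pair 1. AMH replicate 1 was also the lowest of its group for Id2 at 8.72, for Star at 9.17 and for Gm7969 at 3.83. The other marks were Hoxc10 in control replicate 4 at 3.33, Fos in AMH replicate 2 at 5.49, the stromal gene Dcn in AMH replicate 4 at 9.45 and Sfrp2 in control replicate 1 at 9.39. None of the 14 marks fell on replicate 3.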

How the results depend on the processing

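The calls were sensitive to the processing. Dpt and Spon1, and no other gene, were called with an offset of 1 or 16, a filter at the 20th or 60th percentile, robust moderation, replicate number as the block of both times, and the oocyte mean as a covariate. The count of called genes was 0 with no filter, quantile normalization, cyclic loess, median centring, the mean of a gene's probe sets, each probe set on its own, moderation with no trend, no replicate block, the 24 h arrays alone, and the immune or the stromal mean as a covariate. It was 7 with array weights and 2 others (Gsta2 and Matn2) with pairs 1 and 4 left out. Leaving out 1 replicate gave 0 to 1 calls. The change of Dpt ran from 1.50 to 2.16 and that of Spon1 from 0.87 to 1.42 over 23 alternatives, with adjusted p from 0.00278 to 1 and from 0.00976 to 1. Genes called for the difference between times were 1 with quantile normalization, 21 with array weights, 2 with the oocyte and 18 with the immune covariate, and 0 to 1 with a replicate left out.

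The median change of all genes was -0.0153 with no filter, -0.0374 with median centring and 0.0257 with the immune covariate. Genes of one direction in all pairs, 1143 here, were 1896 with no filter and 2271 probe sets on their own. Higher genes at an unadjusted p under 0.05 were 653 with each probe set, 886 with array weights, 234 with no replicate block, 683 without pairs 1 and 4, 885 with the immune and 224 with the stromal covariate, and 239 to 626 with a replicate left out. Lower ones were 237 with the 20th percentile filter, 389 with no filter, 213 with median centring, 392 with each probe set, 581 with array weights, 470 without pairs 1 and 4, 265 with the oocyte and 583 with the immune covariate, and 123 to 419 with a replicate left out. The cause of these differences was not tested.

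Some changes turned their sign, all of genes that had not passed. With the stromal covariate Col1a1 was -0.42, Cyp11a1 0.0920, Esr2 -0.48, Fst -0.20, Gsta2 -0.0980, Igfbp3 -0.33, Inha 0.22, Krt18 0.0798, Runx1 0.0488, Smad7 -0.13, Srebf2 0.17 and Star 0.12. With the immune covariate Amh was 0.17, Id2 -0.0196 and Ptgs2 -0.0746. With array weights Amhr2 was -0.0899, Esr2 -0.0531, Hspa1a 0.0422 and Id1 -0.0726, and with median centring Amhr2 was -0.0355. Without pairs 1 and 4 Amhr2 was -0.21, Esr2 -0.0247, Hspa1a 0.17, Id1 -0.12 and Inhbb -0.19. With a replicate left out the range was -0.14 to 0.15 for Amhr2, -0.0321 to 0.38 for Col1a1, -0.21 to 0.47 for Esr2, -0.0296 to 1.08 for Fst, -0.38 to 0.0496 for Hspa1a, -0.20 to 0.0976 for Inha, -0.48 to 0.81 for Inhbb, -1.40 to 0.0360 for Sfrp4 and -0.76 to 0.14 for Star. The other alternatives kept the direction of the genes named. Of the 114 genes named, 44 turned or had a change smaller by over 1.5 times with at least 1 replicate left out. With the stromal covariate the medians of 18 of the 35 lists changed sign, among them smooth muscle at -0.226 and theca genes at -0.28.

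With 4 pairs and a median SE of 0.17, a gene that missed the threshold may still differ. Changes near the filter's level rest on signals close to the floor. The stromal covariate was chosen after the data were seen and itself differed between the arms. Signs that turned with it are therefore not results about those genes or lists.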

Other observations

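Lists of cell cycle inhibitors, stress, respiration and developmental signalling had medians close to that of all genes. Of 14 measured G1 cyclins and inhibitors of cyclin-dependent kinases, 7 had changes above 0. Cdkn2b, an inhibitor known as a TGF-β target, had levels of 6.34, 6.15, 6.48 and 6.64 in controls and 6.95, 6.78, 7.50 and 6.74 with AMH. Its groups did not overlap, with a change of 0.59 (SE 0.17, adjusted p = 0.813 by limma). Cdkn1b, another inhibitor, had a change of -0.39. The p53 targets had a median of -0.02 and the heat-shock proteins of -0.02, and the 25 genes of oxidative phosphorylation had changes between -0.11 and 0.21, with a median of -0.01. Under quantile and cyclic loess scaling the heat-shock and oxidative phosphorylation medians were just above 0.

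Of 22 glutathione and antioxidant genes 12 were above 0. Gclc, the rate-limiting enzyme of glutathione synthesis, had levels of 8.98 to 9.28 in controls and 9.44 to 9.66 with AMH, with no overlap and a change of 0.37 (SE 0.11, adjusted p = 0.813 by limma). Gsta2, a glutathione transferase, had a change of 0.67, with 1.30 and 1.26 in pairs 2 and 3 and -0.41 in pair 4. Of 26 Notch and WNT genes 13 were above 0. The secreted WNT modulators differed among themselves, with Sfrp1 at 0.74, Sfrp2 at 0.84 and Sfrp4 at -0.82, and pair 1 of Sfrp4 went from 9.40 to 6.01. Fzd1, a WNT receptor, had a change of 0.40. Of 14 YAP targets 9 were above 0 with a median of 0.06. None of these genes passed the threshold.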
